A study of Homo sapiens with 2 samples.

Results

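JUNB was bound, in both libraries of the study, at 4724 intergenic regions that lay more than 1 kb and at most 100 kb from the nearest protein-coding gene. They are 28.4% of the 16610 untreated peaks on chromosomes 1 to 22 and X that had a counterpart after etoposide. The regions were selected on measured peak positions: an untreated peak had to share at least 1 bp with an etoposide peak, and its summit, the base where most fragments were stacked, had to lie in that distance zone. Genes were those of RefSeq on GRCh38. Each region is paired with the etoposide peak it overlaps most, and 230 regions share that peak with another region, so that 1 etoposide value stands beside several untreated ones. That a region is occupied in both libraries is therefore the choice itself and not a result.

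The study profiled JUNB by CUT&RUN, in which an antibody guides a nuclease to its target in permeabilised cells and the released fragments are sequenced. The cells were IMR-90, a human fibroblast line from lung, either left without treatment or treated with etoposide (ETO). Etoposide is a topoisomerase II poison that breaks DNA and is used to bring fibroblasts into senescence. There was 1 library of each condition, from 1 cell line, and the dose and time of etoposide are not given in the sources used here. With no replicate, no difference between the conditions could be tested. Intervals of counts, shares and single ratios below cover counting error only. Those of median ratios give the precision of the median with regions treated as independent, and not the spread among regions. None covers variation between samples. The untreated list held 32550 peaks on these chromosomes and the etoposide list 25739, and the estimated depth of the etoposide library was 0.836 times that of the untreated one.

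JUNB is a subunit of AP-1, a dimer of JUN and FOS family proteins (or their ATF and BATF relatives) that binds the 7-base near-palindrome TGACTCA, which reads TGAGTCA on the other strand. JUN proteins can pair with each other or, more stably, with FOS proteins. In fibroblasts AP-1 acts largely from enhancers that lie away from promoters, often together with TEAD and RUNX factors, and its targets include matrix, protease, cytokine and growth factor genes.

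Sequence could be read where a region fell on the start of a long non-coding RNA (lncRNA) gene, because RefSeq promoter windows (GRCh38.p14, 250 bases before to 50 bases after the start) were at hand for 12788 lncRNA genes. The summits of 34 regions lay in such a window. These examples were chosen because they show the motif and its place beside JUNB summits near genes described below. Each stretch is 5′ to 3′ on the lncRNA's strand. In the first 9 the AP-1 motif is in capitals, and the stretch runs from 12 bases beyond the motif to 12 bases beyond the untreated summit, or to the end of the window. The last, beside ETS2, is the summit and 50 bases on each side of it of a region whose window has no AP-1 motif.
LOC105375171, - strand, chr7:17371818-17372006: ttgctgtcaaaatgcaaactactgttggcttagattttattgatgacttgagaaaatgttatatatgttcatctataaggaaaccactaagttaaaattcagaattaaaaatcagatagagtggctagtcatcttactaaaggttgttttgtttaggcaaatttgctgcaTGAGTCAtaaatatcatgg
LOC124902257, + strand, chr9:115157320-115157372: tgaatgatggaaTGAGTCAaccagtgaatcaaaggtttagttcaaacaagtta
TODL, + strand, chr12:69007409-69007606: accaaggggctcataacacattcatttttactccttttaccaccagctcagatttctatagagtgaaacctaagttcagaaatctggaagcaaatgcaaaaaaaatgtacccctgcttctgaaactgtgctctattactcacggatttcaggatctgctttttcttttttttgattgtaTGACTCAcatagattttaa
LOC124902540, - strand, chr10:3755251-3755375: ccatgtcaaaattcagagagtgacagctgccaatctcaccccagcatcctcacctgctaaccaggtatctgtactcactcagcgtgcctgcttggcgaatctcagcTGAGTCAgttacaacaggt
LOC107986606, - strand, chr6:54801788-54801930: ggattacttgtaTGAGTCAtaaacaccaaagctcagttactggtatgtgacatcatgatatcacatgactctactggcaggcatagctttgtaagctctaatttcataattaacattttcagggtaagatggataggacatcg
LOC105371912, + strand, chr17:78315491-78315675: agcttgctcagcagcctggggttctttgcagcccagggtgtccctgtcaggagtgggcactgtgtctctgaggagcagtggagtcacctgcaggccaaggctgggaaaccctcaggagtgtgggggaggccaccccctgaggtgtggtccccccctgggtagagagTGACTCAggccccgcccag
LUCAT1, - strand, chr5:91314353-91314466: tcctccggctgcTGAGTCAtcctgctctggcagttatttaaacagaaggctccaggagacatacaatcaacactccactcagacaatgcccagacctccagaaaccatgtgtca
LINC02608, - strand, chr1:212234782-212234986: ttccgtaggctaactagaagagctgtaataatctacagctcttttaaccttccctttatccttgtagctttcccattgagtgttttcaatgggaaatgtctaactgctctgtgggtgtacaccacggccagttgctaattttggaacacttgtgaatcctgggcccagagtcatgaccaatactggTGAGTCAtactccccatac
LOC105378198, + strand, chr5:140711026-140711201: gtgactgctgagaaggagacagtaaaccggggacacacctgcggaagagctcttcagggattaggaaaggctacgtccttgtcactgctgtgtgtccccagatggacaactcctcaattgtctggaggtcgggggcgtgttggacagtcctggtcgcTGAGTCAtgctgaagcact
LINC00114, - strand, chr21:38768965-38769065: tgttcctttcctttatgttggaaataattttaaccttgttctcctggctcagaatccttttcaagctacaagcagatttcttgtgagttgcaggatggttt

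An AP-1 motif was present in 19 of the 34 windows, or 55.9% (95% Wilson interval 39.5 to 71.1). Of all 4356 lncRNA windows that start in the same distance zone, peak or not, 7.97% held one. Untreated peaks of the zone without an etoposide counterpart had the motif in 11 of 45 windows (24.4%, 14.2 to 38.7), and shared regions inside protein-coding genes in 11 of 40 (27.5%, 16.1 to 42.8). Shared regions more than 100 kb from genes had it in 7 of 14, and those outside genes but within 1 kb in 1 of 9. Etoposide peaks of the zone without an untreated counterpart had it in 3 of 10. The share was thus highest in shared regions more than 1 kb outside genes, with wide intervals, and no test of these differences was made.

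Other motifs were searched on both strands in the same 34 windows. The cyclic AMP response element TGACGTCA, which ATF and CREB proteins prefer and which does not contain the AP-1 motif, was in 0 of 34 (upper Wilson limit 10.2%, and 8.82% for 3 counts of 34), and in 0.918% of the zone's windows. GGAATG, the core bound by TEAD, was in 11 windows (32.4%, 19.1 to 49.2) against 19.5% of the zone's. It overlapped an AP-1 motif in 1 of them. TTGCNNAA, bound by C/EBP factors, was in 8 (23.5%) against 14.6%, TGTGGTT, bound by RUNX factors, in 2 (5.88%) against 6.43%, and the promoter GC box GGGCGG in 4 (11.8%) against 19.5%. The intervals of each of these shares among the 34 windows take in the share of the zone's windows. The sets compared above for AP-1 differed in the GC box too. It was in 18 of the 45 windows of untreated peaks without a counterpart and in 16 of the 40 inside genes. Beyond 100 kb it was in 1 of 14, and within 1 kb in 7 of 9.

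The region at LOC105375171, 25.8 kb downstream of AHR, was the strongest of the 34. AHR is a ligand-activated transcription factor that senses aromatic compounds. Its summit pileup, meaning how many fragments covered the summit base, was 80 in untreated cells (95% Poisson interval 63.4 to 99.6) and 67 after etoposide (51.9 to 85.1), and the motif lay 161 bp away. At LOC124902257, 39.2 kb upstream of TNC, the gene of the matrix protein tenascin-C, 40 untreated and 30 etoposide fragments were stacked 25 bp from the motif, the shortest distance among the 34. The TODL region near CPM, a membrane carboxypeptidase, had 39 and 27 fragments, with the motif 174 bp off. LOC124902540, 20.6 kb downstream of KLF6, had 33 and 19, with the motif 97 bp off. KLF6 is a zinc-finger factor of the early response to injury. In all 4, the etoposide library had fewer fragments.

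LOC107986606, upstream of FAM83B, held 2 AP-1 motifs, with the nearer 115 bp from the summit, and nearly equal pileups of 34 and 33. LOC105378198, near ZMAT2, also held 2, and went from 31 fragments to 13. At LOC105371912, 41.3 kb downstream of SOCS3, a feedback inhibitor of cytokine receptors, there were 25 and 16 fragments, and at LUCAT1, an inducible lncRNA, 17 and 14. LINC02608, upstream of PPP2R5A, was one of 2 regions with a motif that had more fragments after etoposide, 21 against 16. The other was LINC01531, near GPR42, with 11 against 7. The region at LINC00114, 36.2 kb upstream of ETS2, had no motif in its window and went from 34 fragments to 15, read at summits 243 bp apart. The median ratio of etoposide to untreated fragments was 0.75 in the 19 regions with a motif and 0.667 in the 15 without, with quartiles of 0.613 to 0.832 and 0.483 to 0.915 that overlap.

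The motifs lay to the side of the summits. Of the 21 motifs in the 34 windows none was within 20 bp of the untreated summit, 2 were within 50 bp, and the median distance of the nearest was 157 bp. For a wider view, lncRNA window sequence within 400 bp of any of the untreated summits was searched, which covered 106 regions. There were 62 motifs, at a median of 183 bp from the summit (quartiles 156 and 225). Within 80 bp there were 0.378 motifs per kb searched, and from 120 to 240 bp there were 4.46. Around the etoposide summits the values were 0.906 and 4.94 per kb, and the median distance was 187 bp. The average of the zone's lncRNA windows was 0.281 per kb. Within 80 bp the counts were 2 and 5 motifs, against 39 and 43 from 120 to 240 bp. The read shift and extension used to call the peaks are not given in the sources used here, and their part in where summits lie, and so in these distances and pileups, was not tested.

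Placement beside the motif was shared by the peak lists as a whole. Around all untreated summits near any promoter window, coding genes included, there were 0.175 motifs per kb within 80 bp and 0.992 from 120 to 240 bp, and around all etoposide summits 0.338 and 2.01. Of the 21 motifs in the 34 windows, 11 were inside the untreated peak, 11 inside the etoposide peak and 9 outside both. A window cut close around a summit would therefore have missed most of them.

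**Figure D1:**
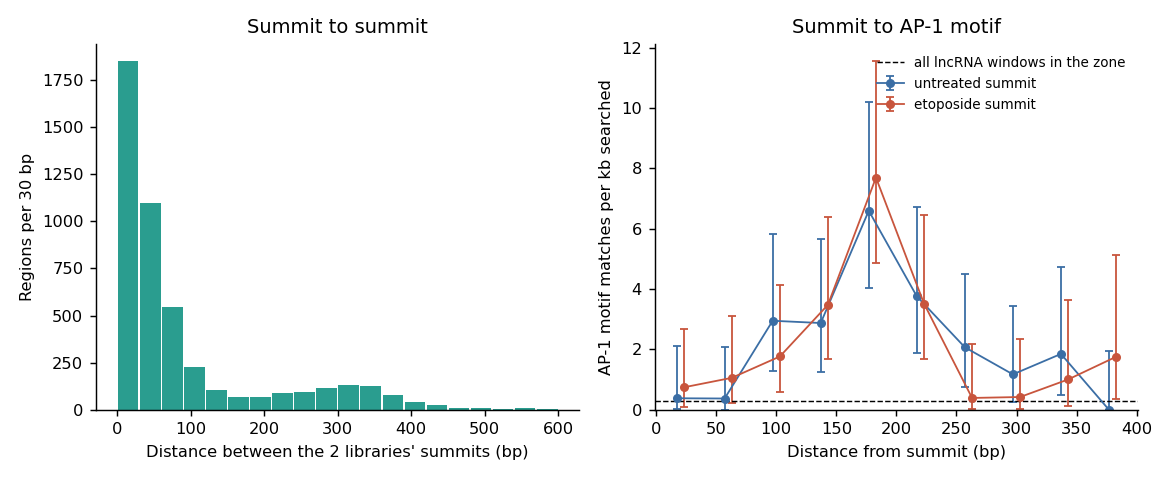
Left, number of regions by the distance between their untreated and etoposide summits (bp, bins of 30 bp). Right, AP-1 motifs per kb of lncRNA window sequence by distance from the untreated (blue) and etoposide (red) summit, with 95% Poisson intervals and the average of all lncRNA windows in the zone (dashed). Both summit sets have their highest density from 160 to 200 bp, and the left panel has a second hump near 300 bp.

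The summits of the 2 libraries also fell into separate sets. In 2967 of the 4724 regions (62.8%) they lay within 60 bp of each other, and few regions (66, or 1.40%) had them 150 to 180 bp apart. A further 597 (12.6%, 11.7 to 13.6) had them 240 to 420 bp apart, with the etoposide summit at the higher coordinate in 293 of these. Shared regions inside genes (12.8%) and more than 100 kb from genes (12.3%) had a like share at that spacing. Of neighbouring regions of the set, 194 pairs of summits were 300 to 500 bp apart, 115 of them 300 to 400 bp, against 51 from 500 to 1000 bp. Only 6 were closer, but separate peaks at least 202 bp wide leave little room for that. Joining regions with summits within 0.5 kb of each other left 4524 groups. Where a motif was found within 250 bp of the stretch between the summits, it lay between them in 3 of 4 regions with summits 240 to 420 bp apart and in 2 of 10 with summits 60 to under 240 bp apart, too few to compare.

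Fragments at the summit ranged from 5 to 166 in untreated cells, with a median of 19 (quartiles 14 and 27). After etoposide they ranged from 5 to 163, with a median of 15 (11 and 20). Local background, the coverage the peak caller set each summit against, had medians of 1.54 and 1.06 fragments, and the authors' deposited fold enrichment, which has 1 added to both the summit and the background value, had medians of 7.62 and 7.40. Regions were a median of 367 bp wide in the untreated list and 300 bp in the etoposide list. The pileups of the 2 libraries correlated across the 4724 regions (Spearman 0.684, Pearson of log2 values 0.715), as a description, since all points share the same 2 libraries and both lists select on pileup. Etoposide had fewer fragments than untreated in 3520 regions, the same in 261 and more in 943.

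The median ratio of etoposide to untreated fragments was 0.769 (95% interval 0.762 to 0.778, from the regions' order). The depth ratio of 0.836 is not a like measure. It is the ratio of the lowest backgrounds with the ratio of the smallest peak widths divided out. Among these regions the lowest backgrounds were 0.482 untreated and 0.377 etoposide fragments, and the smallest widths 202 and 189 bp. Summit fragments were not corrected for width, so the 2 ratios cannot be compared directly. Against the median of all 16610 shared regions, 0.778, a region was called higher or lower where its ratio was more than 2-fold off. Higher calls numbered 115 (2.43%), where 3.09% of all shared regions were called, and lower calls 106 (2.24%), where 1.87% were. These ratios come from the lists that chose the regions, so the shares are a description only. Calls are centred on that median. Scaled to the relative depth instead, there were 73 higher calls (1.55%), where 2.02% of all shared regions were called. Lower calls were then 174 (3.68%), where 3.27% were. That scaling has the same mismatch in width.

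**Figure D2:**
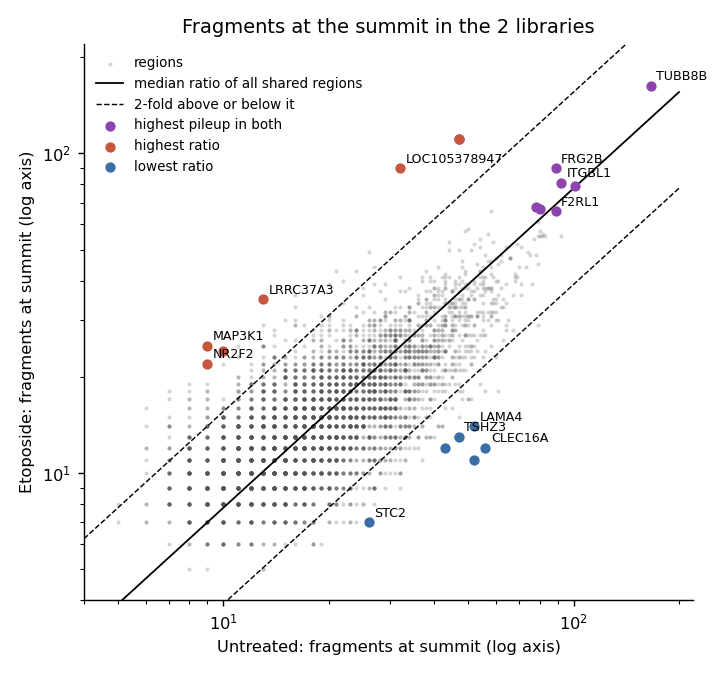
Fragments at the summit of each of the 4724 regions, untreated (horizontal) against etoposide (vertical), both on log axes. The solid line is the median ratio of all shared regions, 0.778, and dashed lines are 2-fold above and below it. Most points lie between the dashed lines, and coloured points are the regions named by rule.

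The strongest region of all, judged by both pileups, was chr18:107926-109183, 34.6 kb upstream of TUBB8B, with 166 untreated (142 to 193) and 163 etoposide fragments (139 to 190). Its local backgrounds, 16.1 and 15.9 fragments, were the highest of the set in both libraries. The region 4.53 kb from ZNF34, a zinc-finger gene, had 79 etoposide fragments at a ratio of 0.782 (0.575 to 1.06) to the untreated ones. A region at chr10:133688178-133688863, 61.9 kb upstream of FRG2B, had 89 and 90, again on high backgrounds of 8.73 and 9.17. TUBB8B and FRG2B belong to families with near-identical copies near chromosome ends, so reads there may come from several places, and how such reads were treated is not given in the sources used here.

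Away from such families, the region 2.30 kb upstream of ITGBL1, which encodes a secreted integrin-like protein, held 92 untreated and 81 etoposide fragments. The region 28.4 kb upstream of F2RL1, the gene of the protease-activated receptor PAR2, held 89 and 66. The AHR region described above had 80 and 67, and the region 13.1 kb upstream of LIPF, a lipase gene, had 78 and 68. Backgrounds at these ranged from 4.20 to 6.71 fragments in the untreated library. All 4 were lower in etoposide by less than the median shift or by nearly the same amount, with ratios of 0.742 at F2RL1, 0.838 at AHR, 0.872 at LIPF and 0.880 at ITGBL1.

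Among regions with at least 20 fragments in 1 of the libraries, those with the highest ratio included a pair on chromosome 1 in nuclear copies of mitochondrial genes. The region in the pseudogene MTATP6P1 went from 32 fragments to 90, a ratio of 2.81 (1.86 to 4.35), and that in MTND2P28 from 47 to 111, a ratio of 2.36 (1.66 to 3.40). LOC105378947 is the nearest protein-coding gene of both. They were the only 2 of the 4724 regions with a summit in 1 of the 465 annotated pseudogenes of this kind, a feature looked up after their values were seen. Whether their fragments came from mitochondrial DNA was not tested.

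Other high ratios rested on fewer untreated fragments. These regions met the fragment minimum through the etoposide count alone, so that side too is set by the choice. The region 78.2 kb from MAP3K1, a kinase upstream of JNK, which phosphorylates JUN, went from 9 fragments to 25, a ratio of 2.78 (1.25 to 6.76). One 8.51 kb upstream of LRRC37A3, of a duplicated gene family, went from 13 to 35, with an etoposide peak shared with another region and its summit 338 bp away from the untreated one. One 95.1 kb upstream of NR2F2, an orphan nuclear receptor of mesenchymal cells, went from 9 to 22, and one near LOC107987020 from 10 to 24. The intervals of these ratios reach down to between 1.08 and 1.39. Like those of the chromosome 1 pair, they make no allowance for picking extreme ratios.

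The lowest ratios were taken from regions that met the same fragment minimum in either library. A low ratio can meet that minimum only through the untreated count, so strong untreated signal here follows from the choice and is not a result. The intervals below make no allowance for picking extreme ratios. Downstream of LOC124905977 52 fragments became 11, a ratio of 0.212 (0.0995 to 0.410), and downstream of CLEC16A 56 became 12, a ratio of 0.214 (0.105 to 0.404). The region 44.0 kb upstream of LAMA4, a laminin chain of vessel and muscle basement membrane, went from 52 to 14. Upstream of STC2, a secreted glycoprotein hormone induced by stress, 26 fragments became 7. TSHZ3, a zinc-finger developmental factor, had 47 and 13 fragments downstream of it, and MAGI2, a scaffold protein of cell junctions, 43 and 12 upstream. In 4 of these 6 (LOC124905977, CLEC16A, LAMA4 and STC2) the 2 summits lay 285 to 621 bp apart, so the counts were read at different bases, as at LRRC37A3.

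Within the set, from 1 to 100 kb, the ratio changed with signal more than with distance. Ranked by the geometric mean of both pileups over all shared regions and cut in 3, the weakest regions of the set had a median ratio of 0.857, the middle 0.773 and the strongest 0.708. Cut in 4 by local background, it went from 0.875 (12 and 10 fragments at the median) to 0.708 (31 and 22). Across 6 distance bins from 1 to 100 kb the median stayed between 0.75 and 0.778. Weak regions are listed in both only where each library passed the caller's threshold, and the part of that selection in this order was not tested.

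Shared regions inside protein-coding genes had nearly the same median ratio, 0.765 (0.76 to 0.769). Those more than 100 kb from genes had 0.846 (0.833 to 0.864) and those outside genes but within 1 kb had 0.667 (0.636 to 0.688). In the strongest of the 3 signal groups the medians were 0.708 for the set, 0.710 inside genes, 0.791 beyond 100 kb and 0.618 within 1 kb. Higher calls made up 7.29% of regions beyond 100 kb (6.40 to 8.29) against 2.43% here (2.03 to 2.91). These differences exceed the intervals, which treat regions of the same 2 libraries as separate and hold no variation between samples. With 1 library a condition no test of them was made.

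**Figure D3:**
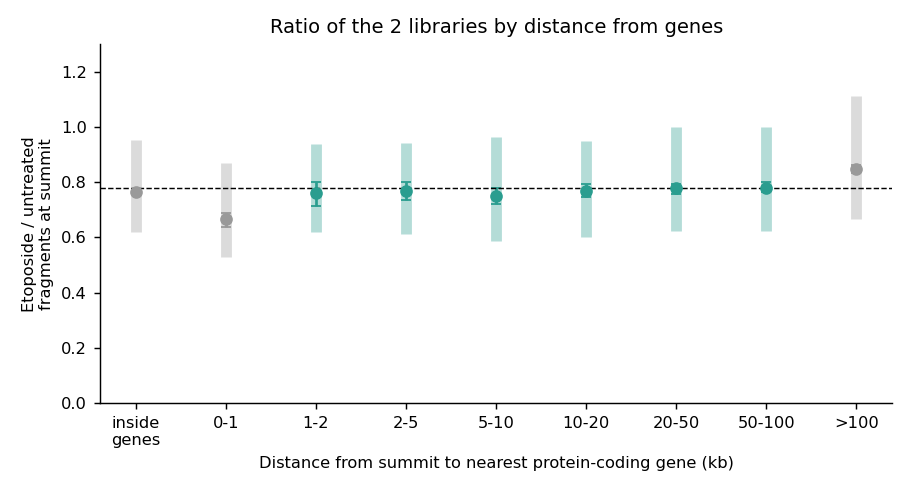
Median ratio of etoposide to untreated fragments at the summit for shared regions inside genes, for 7 distance groups from 0 to 100 kb and beyond 100 kb. Green points are the 4724 regions, thin bars 95% intervals of the median, wide bars quartiles, and the dashed line the median of all shared regions, 0.778. The green medians stay between 0.75 and 0.778, the 0-1 kb group sits below and the group beyond 100 kb above.

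The regions lay a median of 26.4 kb from the nearest gene (quartiles 10.9 and 52.7 kb). Only 151 were within 2 kb, 376 lay at 2 to 5 kb, 577 at 5 to 10 kb, 828 at 10 to 20 kb, 1527 at 20 to 50 kb and 1265 at 50 to 100 kb. Of the 8762 untreated peaks in the zone, 53.9% had an etoposide counterpart. That share was 46.9% (41.5 to 52.3) at 1 to 2 kb and 57.8% (55.7 to 59.8) at 50 to 100 kb. Where the gene's strand was known, 2090 regions were upstream of it and 1627 downstream, so 56.2% were upstream (54.6 to 57.8). The upstream share was 50.4% (41.8 to 59.0) in the nearest bin and 58.1% (54.2 to 61.8) at 10 to 20 kb. The upstream share of the zone's sequence or of all its peaks is not given here to set beside these.

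**Figure D4:**
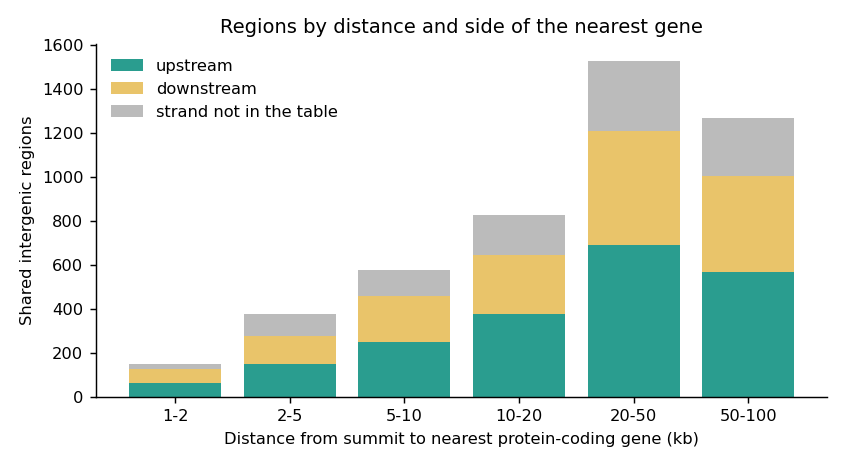
Number of the 4724 regions by distance from the summit to the nearest protein-coding gene (kb), split by whether they lie upstream or downstream of it or beside a gene whose strand the table used here does not give. Counts go from 151 at 1 to 2 kb to 1527 at 20 to 50 kb, and bins differ in width.

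The regions nearest the limits of the rule are listed here, and they are too few to compare the sides. The 2 just inside the lower limit lay 1.014 kb upstream of MYCT1 (19 and 14 fragments) and 1.015 kb upstream of ABCD3 (12 and 9). The region just outside lay 0.999 kb from ZNF827 (23 and 12). At the upper limit the regions at ARHGAP28 (99.83 kb, 55 and 38 fragments) and SLC38A4 (99.754 kb, 34 and 14) were in, and those at ITPRID2 (100.008 kb, 23 and 20) and IGF1R (100.077 kb, 20 and 10) were out.

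The 4724 regions named 2960 protein-coding genes as nearest, which is 14.9% of 19821 and 17.2% of the 17251 genes that are nearest somewhere in the zone. For 1902 genes there was 1 region, for 636 there were 2, and 422 genes with 3 or more held 32.8% of the regions. Nearness does not show which gene a region acts on. A gene in a wide gap also has more room. Territory is the length of sequence at 1 to 100 kb for which a gene is the nearest, and counts of the gene lists below are set against it. The 10 genes with the most regions are ranked by count alone. Their territories ran from 78.6 kb at BBS12 to 198 kb at CDC42EP3 and KLF6, against a median of 24.1 kb for all protein-coding genes.

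ETS2, CDC42EP3 and AUH each had 9 regions, the most of any gene, and none of these fell into 1 group when joined at 0.5 kb. ETS2 encodes an ETS factor that acts downstream of RAS and pairs with AP-1 at composite sites. Its regions ran from 71.0 kb upstream to 96.1 kb downstream, and the strongest, 15.007 kb downstream at chr21:38839497-38840143, had 73 untreated and 44 etoposide fragments. Of the 9, 8 had fewer fragments after etoposide. CDC42EP3, a CDC42 effector that organises actin and septin fibres, had 5 regions upstream and 4 downstream, with 13 to 34 untreated and 11 to 24 etoposide fragments. AUH, a mitochondrial enzyme of leucine breakdown, had all 9 downstream, the strongest with 40 and 20 fragments at 94.2 kb.

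ERRFI1, a feedback inhibitor of the EGF receptor, had 8 regions, 7 of them upstream. The strongest, at chr1:8096631-8097547, 70.5 kb upstream, had 57 and 38 fragments, and the 1 downstream, 6.64 kb off, had 56 and 41. All 8 had fewer fragments after etoposide. SOCS6, an inhibitor of receptor kinase signals, had 8 regions downstream and none upstream, led by one 27.8 kb off with 55 and 40 fragments. One had 16 and 17, and a pair with 24 and 28 untreated fragments shares 1 etoposide peak of 28, whose summit lies 579 and 138 bp from theirs. PDP1, a phosphatase that activates pyruvate dehydrogenase, had 7, with 13 to 28 untreated and 12 to 22 etoposide fragments, and 2 of the 7 share an etoposide peak.

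The last 4 of the 10 genes with the most regions had 6 each, and stand before other genes with 6 by their untreated fragments. KLF6 had 4 upstream and 2 downstream, and the strongest, chr10:3852440-3852734, at 67.4 kb upstream, had 79 and 61 fragments. DCBLD2, a membrane receptor of growth factor signalling, had all 6 upstream. Its pair at chr3:98962375-98962639 and chr3:98962752-98963113, with 34 and 62 untreated fragments, shares 1 etoposide peak of 33 fragments, whose summit is 409 bp from the first and 19 bp from the other. PHLDA1, an inducible gene of the stress response, had all 6 downstream, from 4.41 kb (53 and 24 fragments) to 80.9 kb (48 and 44). At the nearest of these the summits of the libraries lay 354 bp apart. BBS12, of the ciliary Bardet-Biedl group, had 3 on each side, with 21 to 45 and 19 to 27 fragments. Joined at 0.5 kb, each of these 4 genes had 5 groups, SOCS6 had 7 and PDP1 6.

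**Figure D5:**
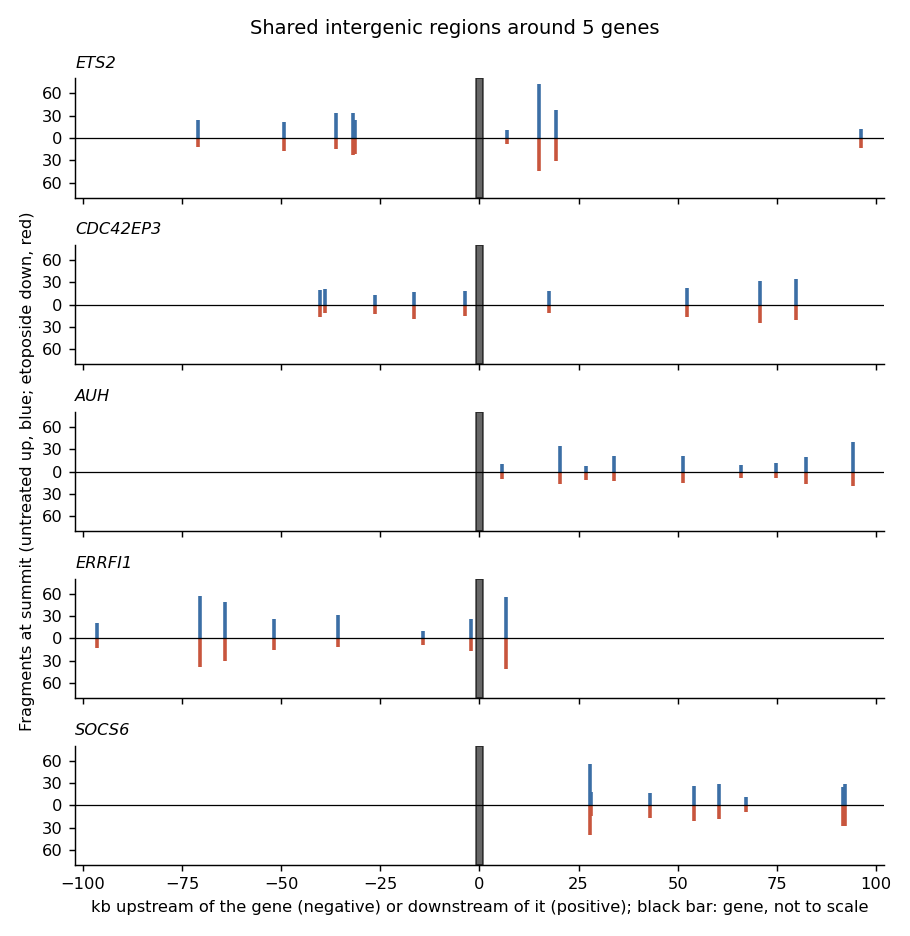
Regions around 5 genes with the most regions among those of known strand, by distance from the gene (kb, upstream negative), with fragments at the summit up for untreated (blue) and down for etoposide (red). The gene body is drawn as a black bar and not to scale. AUH and SOCS6 have regions on the downstream side only, and ERRFI1 has 7 of 8 upstream.

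Gene lists of AP-1 biology and of cell types were counted next. Of the 269 genes listed, 46.1% (40.2 to 52.1) were nearest to at least 1 region, against the 14.9% of all genes. All protein-coding genes together had 6.02 regions per Mb of territory. The lists were drawn up by what AP-1 and fibroblasts are known for and with earlier results of these data known, so the excess is not independent evidence.

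Of the matrix and crosslinking genes, 18 of 26 had a region, 37 in all, or 19.4 per Mb, and their median ratio was 0.676. COL6A3, a chain of collagen VI, had 6, all downstream, the strongest with 46 and 21 fragments, and 2 of the 6 share an etoposide peak. COL1A1, a chain of collagen I, had 3, with 29, 30 and 37 untreated fragments against 12, 14 and 14 after etoposide. Their etoposide summits lay 409, 252 and 462 bp from the untreated ones, so the counts were read at different bases. FBN1, the microfibril protein fibrillin, had 3, the strongest with 37 and 25, and TNC had 3 upstream, with 40 and 30 at most. Of the 37 regions of this list, 2 were called higher and 1 lower, where 3.09% and 1.87% of all shared regions were. A higher call was at COL3A1, with 7 and 12 fragments, and the lower call was the COL1A1 region with 37 and 14. These calls are too few to compare. Of the matrix proteases and their inhibitors, 10 of 17 had regions, 25.7 per Mb, with a median ratio of 0.684. SERPINB2, an inhibitor of plasminogen activators, had 3 upstream, of which the one at 5.13 kb went from 29 to 11 and its neighbour at 4.77 kb from 21 to 23. The 3 at ADAMTS1, a metalloproteinase of the ADAMTS family, all had more fragments after etoposide, 11, 14 and 27 against 8, 10 and 23. TIMP2, a metalloproteinase inhibitor, had 2, the stronger with 45 and 23.

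Secreted cytokines and chemokines, many of them part of the secretions of senescent fibroblasts, had regions at 12 of 22 genes, 14.7 per Mb, with a median ratio of 0.708. IL6 had 3 upstream, with 29, 24 and 36 untreated fragments and 15, 17 and 23 after etoposide, at 79.4, 59.2 and 8.74 kb. CXCL8, the neutrophil attractant interleukin 8, had 2 upstream, with 34 and 23 untreated fragments against 23 and 14 after etoposide. CXCL3 had a strong one 18.2 kb upstream with 55 and 41. CSF1, the macrophage growth factor, had 4. A pair of them, with 16 and 11 untreated fragments, shares 1 etoposide peak of 19 fragments, and the second of the pair was a higher call on that shared value. The other CSF1 regions had 18 and 19 fragments and 18 and 10. The ratios at IL6 (0.517 to 0.708) and CXCL8 (0.609 and 0.676) were below the median of all shared regions, 0.778. None of them was called lower. Counts at CSF1 went both ways on few fragments.

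Growth factors and receptors had regions at 15 of 25 genes, 32 in all or 11.5 per Mb, and a median ratio of 0.878, the highest of the lists other than blood markers. HGF, the hepatocyte growth factor that fibroblasts secrete, had 5 downstream, with 21 to 39 untreated and 18 to 24 etoposide fragments. AREG, an EGF receptor ligand, had 4, and EGFR had 3, the strongest 49.5 kb upstream with 29 and 32. VEGFC, a lymphatic growth factor, had 41 and 22 at its strongest. TGF-beta and activin genes had regions at 7 of 23, 9.44 per Mb. FST, the activin antagonist follistatin, had 5, all upstream, with 49 and 27 at most, and TGFB2 had 4 downstream, with 39 and 29 at most. No region of these 2 lists was called higher or lower, which for 32 and 16 regions and background shares of 3.09% and 1.87% says little.

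Genes of the AP-1 family themselves had regions at 7 of 18 (ATF3, BATF3, FOS, FOSB, FOSL2, JDP2 and JUN), 13 in all or 17.1 per Mb. JUN had 4. The one 39.7 kb upstream had 64 and 28 fragments and the one 65.2 kb upstream 56 and 27, while those downstream had 34 and 30 and 17 and 17. ATF3, a stress-induced partner, had one 3.69 kb upstream with 43 and 38. FOS had 2 upstream, both weak, with 12 and 7 and 9 and 9. JUNB was not among the genes with a region. Targets of TEAD and YAP, which share enhancers with AP-1, had regions at 8 of 18, 13.7 per Mb. TEAD1 had one with 71 and 39 fragments at 48.6 kb, CCN1 had 45 and 28 at 23.4 kb, and CCN2 had 28 and 20 at 31.7 kb upstream. Feedback genes of MAP kinases had regions at 6 of 12, among them DUSP1 with 5 and DUSP10 with 4. The strongest at DUSP1, 6.96 kb upstream, went from 44 to 19, read at summits 424 bp apart.

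Fibroblast transcription factors had regions at 16 of 28 genes, 35 in all or 9.68 per Mb, with a median ratio of 0.773. Besides KLF6, BNC2 had 5, ZEB1, a repressor of epithelial genes, had 4, all upstream with 8 to 22 untreated fragments, and ZEB2 had 3. Contractile and adhesion genes had regions at 11 of 24, 18.6 per Mb. ITGB1, the common beta chain of matrix receptors, had 3. A pair of equal size, 55 fragments each, had 34 and 36 after etoposide, and the third, 74.7 kb upstream, had 18 and 22. The CD44 pair had more after etoposide, 21 and 14 against 15 and 12. Targets of p53 and cell cycle brakes, with 7 of 24 and 12.1 per Mb, were led by CDKN2B, an inhibitor of CDK4 and CDK6, with 4 upstream. PLK2 had 50 and 38 fragments at 46.6 kb, and GADD45A had 42 and 27 at 2.28 kb.

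Markers served as a check of the label. Fibroblast markers had a region at 6 of 9 genes (COL1A1, COL1A2, COL3A1, DCN, LUM and THY1), 14.5 per Mb. Lung epithelium markers had one at 1 of 12, CLDN18, and 2.19 per Mb. Blood cell markers had them at 1 of 10, PTPRC, with 8.42 per Mb, and endothelium markers at 4 of 8 (CDH5, CLDN5, ERG and KDR), 7.66 per Mb. Fibroblast markers thus had the most regions per Mb of the 4 marker lists, on few genes, and JUNB occupancy is no measure of their expression.

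Non-coding genes can lie under the regions, since the rule counts only protein-coding genes. The summit was inside a lncRNA gene in 1283 (27.2%), and 31 regions lay within 5 kb of a miRNA gene. The matching shares of the zone's sequence or of other peaks are not given here, so these counts are a description only. The region 0.245 kb from MIR155, a regulator of immune cells, had 17 and 14 fragments and MRPL39 as its nearest protein-coding gene. Near F3, the gene of tissue factor that starts clotting, a region 3.40 kb off had 55 and 31 fragments.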

How the data were processed

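JUNB CUT&RUN peaks of 1 untreated and 1 etoposide-treated IMR-90 library were used, grouped by the treatment label. The submitters' processing notes name Bowtie2, MACS2, hg38 and mm10, with no role or version. In the deposited narrowPeak lists the authors give each peak a fold (ratio of summit signal to local background), -log10 p and -log10 q values, a score and a summit offset. The lists give no depth. Pileups were worked out from the deposited fold, (k + 1)/(b + 1), and the Poisson tail of the deposited -log10 p, and were whole for 100% of peaks within 0.001. For 118 peaks 2 whole numbers fitted, and the closer was taken. The method was checked on simulated data. Relative depth came from the lowest background and smallest width of each list.

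RefSeq GRCh38.p14 gave genes, of which 153 protein-coding ones placed on scaffolds or alternate loci were left out. Strand came from the promoter windows. Poisson and Wilson intervals are at 95%. Analyses used Python 3.11.15 with pandas 2.3.3 and scipy 1.17.1.

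Named were the 8 strongest regions, the 6 highest and 6 lowest ratios with at least 20 fragments in 1 library, 2 regions on each side of each limit (1 is not reported here), the 10 genes with most regions, up to 4 genes of each list, and the regions at lncRNA windows, which were added after seeing the data. The regions and gene lists were chosen with earlier results of these data known. No genome sequence was used here, so motifs were searched in promoter windows only.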

Additional observations from a re-analysis of the deposited data

How the results depend on the processing

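Asking for at least 50% of both peaks in common left 3149 regions and 35.3% of listed genes with one. The share of all genes under that overlap is not given here to set beside it. The other alternatives for the number of regions gave 3459 to 4773. Subtracting local background moved the median ratio to 0.780. Higher calls were 73 when scaled to the relative depth, 531 at a 1.5-fold threshold and 69 where both peaks had a -log10 q of 5 or more, where 2.02%, 12.5% and 2.37% of all shared regions were called. Lower calls were 174, 545 and 61 under the same settings, where 3.27%, 11.0% and 1.29% of all shared regions were. Counting any gene with a region within 50 kb raised the share of listed genes to 54.3%, against 21.6% of all genes. Chosen after seeing the data, a limit of 50 bp between motif and summit left 5.88% of the 34 lncRNA windows with an AP-1 motif. At the 19 regions named for strength or ratio, subtracting background kept each value within its counting interval, and scaling to depth multiplies all by 1 small factor. The planned search for AP-1 motifs within 100 bp of every summit was not run, as no genome was used here. No paired analysis was possible because each condition has 1 library and no test was made. Depth limits single ratios: with 9 fragments in a library the interval runs from 4.12 to 17.1.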
